A study of Mus musculus with 6 samples.

Results

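The MHC class I and II genes described here were chosen by their symbols in the deposited table, which gave 10 of its 41128 genes. They are the class II chains H2-Aa, H2-Ab1 and H2-Eb1, the peptide exchange factor subunits H2-DMa and H2-DMb1, the invariant chain Cd74, the class II transactivator Ciita, the classical class I heavy chains H2-K1 and H2-D1, and the class I light chain B2m. Their RNA was measured in acute myeloid leukemia (AML) cells of 6 C57BL/6 mice, 3 with Hoxa9/MTV leukemia (mice 1.1, 1.2 and 1.4) and 3 with Hoxa9/IRX3 leukemia (mice 3.2, 3.3 and 3.5), with 1 library per mouse. Both cohorts began from KIT+ bone marrow (BM) cells of CD45.1+ donors that carried retroviral Hoxa9. Hoxa9/MTV cells also carried the empty vector MTV, and Hoxa9/IRX3 cells a retrovirus with the human IRX3 cDNA. The drug-selected cells were transplanted into lethally irradiated young female CD45.2+ recipients together with normal CD45.2+ BM cells, and when mice became sick, viable CD45.1+ KIT+Gr1+ cells were flow sorted from thawed BM. Retroviral expression is not limited to a cell type.

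MHC class II molecules are pairs of an alpha and a beta chain that present peptides from the endocytic route to CD4 T cells. The invariant chain blocks their groove until H2-DM exchanges its last fragment for a peptide, and Ciita is the coactivator that switches on this group of genes in dendritic cells, B cells and macrophages. MHC class I molecules, a heavy chain with beta-2 microglobulin, are made by nearly all nucleated cells and present peptides from the cytosol to CD8 T cells. Promoters of both classes share a module of X and Y boxes, bound by RFX, CREB/ATF and NF-Y proteins, on which Ciita (class II) or Nlrc5 (class I) is recruited.

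The module can be read in the start windows that RefSeq gives on GRCm38.p6, 300 bases from 250 before to 50 after each start. A window was matched for 7 of the members, and H2-Ab1, Cd74 and Ciita are named only. The letters TGANG, as in the CREB/ATF part of the X box, starting 20 to 30 bases before ATTGG, the NF-Y core of the Y box, were found in the sense direction in windows of 6 of these 7 genes. Across all 32851 windows the same spacing was found in the sense direction in 1.61% and on either strand in 2.79%. ATTGG alone was found on either strand in 37.4%. The pair of motifs was chosen after these sequences were seen, and a match is a description of letters and no proof of binding. The sequences below are shown because they set the weakly expressed class II genes beside the strongly expressed class I genes in 1 arrangement, with TGANG and ATTGG in capitals and each strand written 5′ to 3′ towards its gene.
H2-Aa (chr17:34287859-34287909, minus strand): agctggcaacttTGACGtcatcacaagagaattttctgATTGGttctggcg
H2-Eb1 (chr17:34305769-34305820, plus strand): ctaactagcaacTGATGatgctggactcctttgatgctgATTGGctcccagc
H2-DMb1 (chr17:34153090-34153142, plus strand): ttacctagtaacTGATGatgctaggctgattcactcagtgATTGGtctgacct
H2-K1 (chr17:34000351-34000400, minus strand): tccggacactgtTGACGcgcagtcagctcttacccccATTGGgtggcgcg
H2-D1 (chr17:35262978-35263030, plus strand): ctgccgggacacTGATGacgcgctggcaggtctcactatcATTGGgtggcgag
B2m (chr2:122147597-122147646, plus strand): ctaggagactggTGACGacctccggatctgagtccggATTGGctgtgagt
The ATTGG core began 48 bases before the RefSeq start in H2-Aa, 59 in H2-Eb1, 61 in H2-DMb1, 76 in H2-D1 and 53 in B2m. H2-K1 has 2 RefSeq starts, 16 and 30 bases after it. In addition, the windows of H2-K1 and H2-D1 hold GGGGATTCC, the kappa B letters of the class I enhancer, which stood on either strand in 0.25% of all windows. By GENCODE M21 the printed stretches lie just upstream of their genes, except those of H2-DMb1 and H2-D1, which fall inside the widest annotated span. H2-DMa is the searched gene without the pair, in either of its 2 windows. Its RefSeq starts lie 12350 and 9664 bases before the 3920-base stretch by whose length its deposited values appear to be divided (chr17:34135182-34139101). The windows thus do not reach that stretch, and the missing pair is not read as a difference from the other members.

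Before the results, 3 facts of the libraries bear on them. The deposited values are RPKM, that is, reads divided by the gene's length and by the size of the library, and the steps between low values gave 7979246 to 9803621 reads per library, from which the reads behind each value were computed. Most lengths in these values are the whole span of a gene with its introns, so levels of different genes are compared below only after dividing the reads by the length of the principal spliced transcript. Mouse 3.2 also stood apart in the reads on the mouse gene Irx3, and no value separates reads of the introduced human cDNA from those of the mouse gene. Irx3 had no read in Hoxa9/MTV libraries and 454, 14 and 4 reads in mice 3.2, 3.3 and 3.5, or 15.1, 0.421 and 0.148 RPKM. For the members, and for other genes whose fold change is given, the value with a mouse left out stands beside it where that changed a call or a direction.

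Of the 10 genes, 8 passed the study's threshold of 0.5 RPKM in at least 1 mouse and were tested, while H2-Eb1 and Ciita did not pass. Each difference is Hoxa9/IRX3 minus Hoxa9/MTV on log2(RPKM + 0.5), which makes changes of low genes look smaller, from limma with Benjamini-Hochberg adjustment over all 9522 genes tested. A gene is called changed where the adjusted p is below 0.05 with a difference of 2-fold or more. H2-DMa was called lower and the other 7 were not called, beside 3.13% of all tested genes called in either direction and 2.03% called lower. All Hoxa9/IRX3 mice lay below all Hoxa9/MTV mice for 2 of the 8, H2-DMa and H2-DMb1, beside 21.6% of all tested genes. Over the 5 tested class II members the median log2 fold change was -0.78 with 5 of 5 estimates below 0, and over the 3 class I members it was 0.11 with 1 of 3 below 0. H2-Aa passed the threshold only in Hoxa9/MTV mice, so the filter favoured an estimate below 0 for it. H2-Eb1 and Ciita are outside this count, which is a description and no test. The median of all tested genes was -0.06, with 57.5% of estimates below 0. An exact permutation test of 3 mice against 3 cannot give a p below 0.1.

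The class I genes and the class II genes stood at very different levels in these cells. With the length of the principal transcript in place of the deposited one, B2m was highest in Hoxa9/MTV cells at 1537 ± 117 RPKM (SD, n = 3), followed by H2-K1 at 645 ± 12.8 and H2-D1 at 611 ± 22.6, whose ranges overlapped. H2-DMa followed at 49.7 ± 7.07 and H2-DMb1 at 22.4 ± 1.13, apart from each other and from all other members. Of the genes below them, H2-Ab1 was at 10.6 ± 1.87, Cd74 at 5.09 ± 3.38, H2-Aa at 3.05 ± 1.15 and H2-Eb1 at 1.39 ± 0.857. In that order each of these 4 overlapped the next. Ciita closed the order at 0.0416 ± 0.0385.
The order of the means on the same scale was the same in Hoxa9/IRX3 cells, with wider ranges. B2m was at 1398 ± 228, H2-K1 at 768 ± 193 and H2-D1 at 683 ± 213, again with H2-K1 and H2-D1 overlapping. H2-DMa at 16.6 ± 6.33, H2-DMb1 at 11.2 ± 4.93 and H2-Ab1 at 9.74 ± 12.3 overlapped as well. Cd74 at 1.75 ± 2.37, H2-Aa at 1.03 ± 0.916 and H2-Eb1 at 0.639 ± 0.473 came next, and Ciita was at 0.0556 ± 0.0964.

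**Figure D1:**
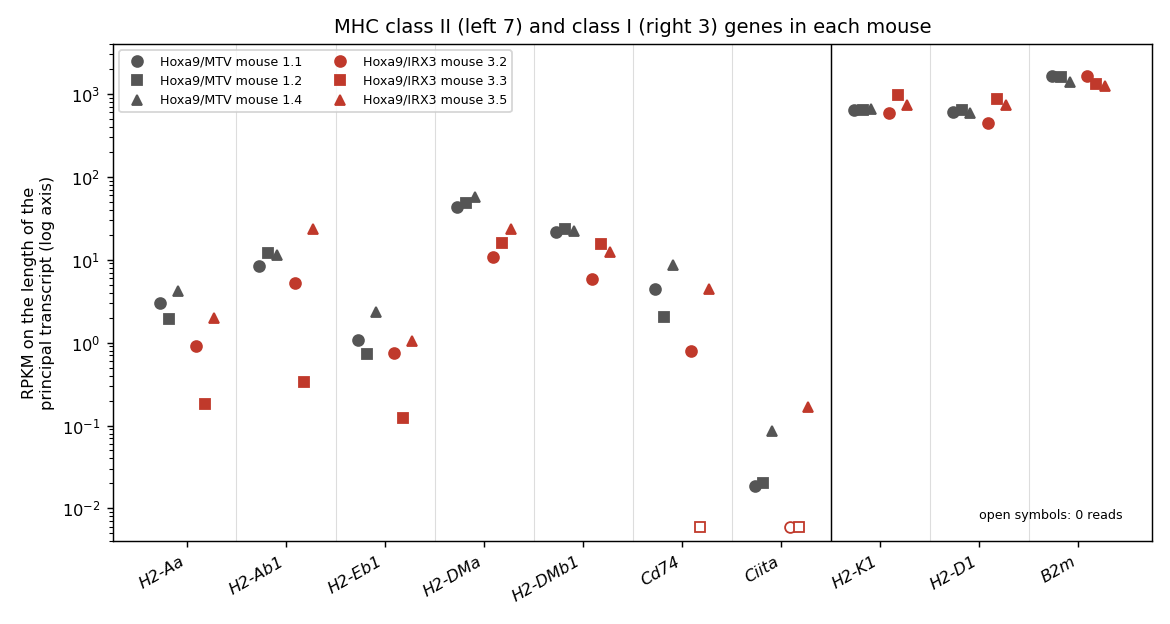
RPKM on the length of the principal transcript (log axis) for each member gene in each of the 6 mice, Hoxa9/MTV in grey and Hoxa9/IRX3 in red, with open symbols for libraries with 0 reads. H2-DMa and H2-DMb1 are the members whose red points all lie below the grey ones, and mouse 3.3 (red square) is the lowest of all mice for H2-Aa, H2-Ab1 and H2-Eb1.

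H2-DMa (ENSMUSG00000037649) encodes the alpha chain of the peptide exchange factor. It was at 18.5, 20.2 and 24.3 RPKM in Hoxa9/MTV mice 1.1, 1.2 and 1.4 and at 4.52, 6.71 and 9.85 RPKM in Hoxa9/IRX3 mice 3.2, 3.3 and 3.5, or 642, 659 and 923 reads against 157, 258 and 308. Every Hoxa9/IRX3 value lay below every Hoxa9/MTV value, and the means of 21.0 ± 2.99 and 7.03 ± 2.68 RPKM (SD, n = 3 each) differ 2.99-fold. The log2 fold change was -1.57 (standard error 0.27, 95% interval -2.23 to -0.91, adjusted p = 0.0293 by limma). As each library is RNA of all sorted cells of a mouse together, fewer cells of a type and less RNA per cell cannot be told apart, here or in the values that follow.
With any 1 mouse left out the log2 fold change stayed between -1.83 and -1.31, but the call did not hold in each fit. Without mouse 1.1, 1.2, 1.4 or 3.3 the adjusted p was 0.103, 0.125, 0.132 or 0.0503 by limma, whereas without mouse 3.2 or 3.5 it was 0.0276 or 0.0163. GENCODE M21 gives H2-DMa a span of 34119541 to 34139101 on the plus strand of chromosome 17, of which 3094 bases overlap Brd2 on the opposite strand. The stretch of 3920 bases that matches the deposited values begins after that overlap.

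H2-DMb1 (ENSMUSG00000079547; chromosome 17, 34153072 to 34160230, plus strand), the beta chain of the same factor, was at 4.19, 4.62 and 4.36 RPKM in Hoxa9/MTV mice and 1.14, 3.03 and 2.40 RPKM in Hoxa9/IRX3 mice. The cohorts did not overlap, with mouse 3.2 lowest. Its log2 fold change of -0.93 (standard error 0.28, 95% interval -1.60 to -0.27) had an adjusted p of 0.107 by limma and was not called. By the study's criterion, an unadjusted p with a ratio of mean RPKM over 2, it passed with a log2 ratio of -1.004. H2-DMb1 has a close relative, H2-DMb2, and the authors removed alignments of low mapping quality, so reads that fit both genes may be missing from either.
The balance of the chains differed between mice. Per kilobase of principal transcript, H2-DMa exceeded H2-DMb1 by 2.05, 2.03 and 2.59 times in mice 1.1, 1.2 and 1.4, by 1.85 and 1.90 times in mice 3.2 and 3.5, and by 1.03 times in mouse 3.3.

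H2-Aa (ENSMUSG00000036594; chromosome 17, 34282744 to 34287823, minus strand), the I-A alpha chain, was at 0.667, 0.426 and 0.935 RPKM in the Hoxa9/MTV mice. In mice 3.2, 3.3 and 3.5 it was at 0.1998, 0.0401 and 0.444 RPKM, which rest on 9, 2 and 18 reads. Mouse 3.5 lay just above mouse 1.2, so the cohorts overlapped, and the log2 fold change of -0.71 (standard error 0.26, adjusted p = 0.161 by limma) was not called.
H2-Ab1 (ENSMUSG00000073421; chromosome 17, 34257689 to 34269419, plus strand) encodes the beta chain that pairs with it. The Hoxa9/MTV mice were close together at 1.66, 2.33 and 2.25 RPKM, while mice 3.2, 3.3 and 3.5 were at 1.02, 0.0657 and 4.62 RPKM, or 56, 4 and 229 reads. Mouse 3.3 was thus the lowest and mouse 3.5 the highest of the 6 mice. The log2 fold change of -0.64 (standard error 0.73, 95% interval -2.38 to 1.10, adjusted p = 0.616 by limma) became 0.12 without mouse 3.3 and -1.465 without mouse 3.5.
H2-Eb1 (ENSMUSG00000060586; chromosome 17, 34305867 to 34316674, plus strand), the I-E beta chain, stayed under the threshold at 0.175, 0.117 and 0.381 RPKM in Hoxa9/MTV and 0.120, 0.0198 and 0.170 RPKM in Hoxa9/IRX3 mice. These values rest on 16, 10 and 38 reads and on 11, 2 and 14 reads, and the cohorts overlapped. With no filter on low values the log2 fold change was -0.26 (standard error 0.17) with an adjusted p of 0.442 by limma.

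Within a mouse the I-A chains were not at 1 ratio. Per kilobase of principal transcript, H2-Ab1 exceeded H2-Aa by 2.82, 6.21 and 2.73 times in mice 1.1, 1.2 and 1.4, and by 5.79, 1.86 and 11.8 times in mice 3.2, 3.3 and 3.5. The ratio of mouse 3.3 rests on 4 and 2 reads. In mouse 3.5, the highest ratio, 229 reads of H2-Ab1 stood beside 18 of H2-Aa.

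Cd74, the invariant chain (ENSMUSG00000024610), was at 0.720, 0.328 and 1.40 RPKM in mice 1.1, 1.2 and 1.4 and at 0.128, 0 and 0.712 RPKM in mice 3.2, 3.3 and 3.5. The read numbers were 56, 24 and 119 against 10, 0 and 50, and mouse 3.5 lay within the Hoxa9/MTV range. The 0 of mouse 3.3 allows up to 3 reads, or 0.0348 RPKM, for counting error only. The log2 fold change of -0.78 (standard error 0.42, 95% interval -1.78 to 0.22, adjusted p = 0.300 by limma) was not called. The size of this estimate depends on how low values are treated, and it was -1.61 with a pseudocount of 0.1 and -3.28 with limma voom on the recovered reads (adjusted p 0.279 and 0.24). By the same settings H2-Aa was at -1.40 and -2.04 (adjusted p 0.177 and 0.195) and H2-Ab1 at -1.17 and -1.73 (adjusted p 0.545 and 0.392), none of them called.
Ciita (ENSMUSG00000022504; chromosome 16, 10480059 to 10528418, plus strand) had 1, 1 and 5 reads in mice 1.1, 1.2 and 1.4 and 0, 0 and 8 reads in mice 3.2, 3.3 and 3.5. The highest value of any mouse was 0.0255 RPKM, in mouse 3.5. A count of 0 allows up to 0.00859 RPKM in mouse 3.2 and 0.00776 RPKM in mouse 3.3, so a difference in Ciita was not detectable at this depth. No fold is given for it. Dexi lies over 25888 bases of its span on the opposite strand.
Summed over H2-Aa, H2-Ab1, H2-Eb1 and Cd74, the libraries held 193, 172 and 338 reads in Hoxa9/MTV and 86, 8 and 311 reads in Hoxa9/IRX3 mice. Mouse 3.5 thus stood with the Hoxa9/MTV mice, and mouse 3.3 had the fewest reads by far.

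H2-K1 (ENSMUSG00000061232; chromosome 17, 33996017 to 34000347, minus strand) encodes the K heavy chain of class I. It was at 240, 238 and 247 RPKM in the Hoxa9/MTV cohort and 221, 364 and 279 RPKM in the Hoxa9/IRX3 cohort. Mouse 3.2 was the lowest of the 6 mice and mouse 3.3 the highest. The log2 fold change was 0.22 (standard error 0.20, 95% interval -0.26 to 0.70, adjusted p = 0.528 by limma).
H2-D1 (ENSMUSG00000073411; chromosome 17, 35262730 to 35267499, plus strand), the D heavy chain, was at 266, 281 and 262 RPKM in Hoxa9/MTV and 197, 379 and 328 RPKM in Hoxa9/IRX3 mice, with the same mice lowest and highest. Its log2 fold change of 0.11 (standard error 0.25, 95% interval -0.50 to 0.71, adjusted p = 0.821 by limma) became -0.08 without mouse 3.3. H2-K1 and H2-D1 are near-identical in long stretches to each other and to the H2-Q and H2-T genes, and filtering on mapping quality can remove or shift their reads, so their values are uncertain.
B2m (ENSMUSG00000060802; chromosome 2, 122147686 to 122153083, plus strand), the shared light chain, was at 259, 252 and 224 RPKM in Hoxa9/MTV and 264, 207 and 197 RPKM in Hoxa9/IRX3 mice. The cohorts overlapped, with mouse 3.2 highest. The log2 fold change was -0.15 (standard error 0.16, 95% interval -0.54 to 0.25, adjusted p = 0.614 by limma), and 0.03 after quantile normalization. Patl2 covers the whole of B2m on the opposite strand.
For the 3 class I genes these intervals leave room for changes of either sign, and the design does not show that the cohorts are alike. The balance of heavy and light chains was wider among the Hoxa9/IRX3 mice. Reads of H2-K1 and H2-D1 together exceeded those of B2m by 1.65, 1.74 and 1.92 times in mice 1.1, 1.2 and 1.4. The same ratio was 1.33 in mouse 3.2, 3.03 in mouse 3.3 and 2.60 in mouse 3.5, so the Hoxa9/IRX3 mice lay on both sides of the Hoxa9/MTV range.

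**Figure D2:**
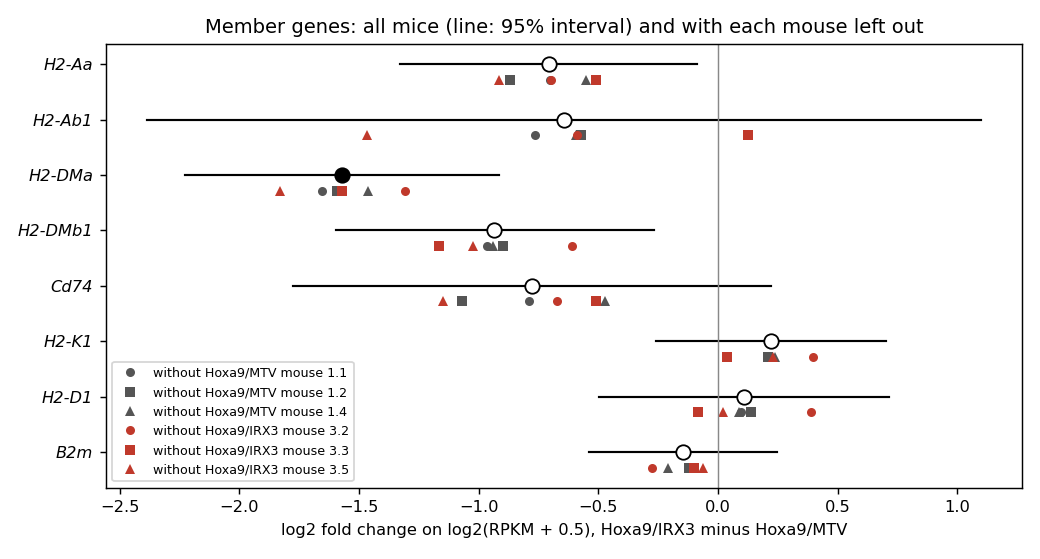
Log2 fold change, Hoxa9/IRX3 minus Hoxa9/MTV on log2(RPKM + 0.5), of the 8 tested members with all mice (large circles, filled where called; lines are 95% intervals of limma) and with each mouse left out (small symbols). H2-DMa lies between -1.83 and -1.31 in every such fit, and the estimate of H2-Ab1 crosses 0 without mouse 3.3.

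Other genes of these pathways were taken from lists: 84 genes, of which 77 are in the table, 69 were above 0 in at least 1 mouse and 55 were tested. Of the 55, 4 were called lower and 1 higher, beside 2.03% and 1.1% of all tested genes, and their median log2 fold change was -0.11, beside -0.06 over all tested genes. Of the genes called lower, Ctss and Fcgrt passed the threshold only in Hoxa9/MTV mice. 

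The other class II genes held 3 tested members, and 1 was called lower. H2-Ob, the beta chain of H2-O, the inhibitor of H2-DM, was at 3.60, 3.95 and 3.34 RPKM in Hoxa9/MTV mice and 0.226, 0.0728 and 0.948 RPKM in Hoxa9/IRX3 mice, or 223, 230 and 226 reads against 14, 5 and 53. The cohorts lay far apart, with a log2 fold change of -2.29 (standard error 0.33, adjusted p = 0.0175 by limma). Its partner chain H2-Oa was at 1.02, 0.707 and 1.54 RPKM against 0.390, 0.0705 and 0.866 RPKM, which overlap, and its log2 fold change of -0.81 had an adjusted p of 0.214. H2-DMb2, the second DM beta gene, was at 0.740, 0.759 and 0.589 RPKM against 0.328, 0.124 and 0.471 RPKM and did not overlap (log2 fold change -0.59, adjusted p = 0.127 by limma). H2-DMb2 passed the threshold only in Hoxa9/MTV mice, so the filter favoured an estimate below 0 for it. The start windows of H2-Ob and H2-DMb2 hold the same pair of motifs as those printed above, and that of H2-Oa does not.

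Among 4 tested genes of class II antigen processing, 1 was called lower. Ctss, the protease that trims the invariant chain, was at 1.00, 1.11 and 1.64 RPKM in Hoxa9/MTV mice and 0.263, 0.0895 and 0.0592 RPKM in Hoxa9/IRX3 mice. No values overlapped, and the log2 fold change was -1.45 (standard error 0.20, adjusted p = 0.0147 by limma). Another lysosomal protease, Ctsb, passed the adjusted p but not the 2-fold limit, at 24.6 ± 0.781 against 15.7 ± 1.07 RPKM (SD, n = 3; log2 fold change -0.64, adjusted p = 0.0384 by limma, and up to 0.167 with a mouse left out). Ctsd was at 24.5 ± 1.09 and 26.8 ± 4.81 RPKM (adjusted p = 0.697 by limma). Ifi30, a thiol reductase of the same route, is not typed as protein-coding in GENCODE M21 and was not tested. Its values were 8.81, 16.5 and 15.6 RPKM against 0.986, 8.42 and 1.26 RPKM, with mouse 3.3 just below mouse 1.1.

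Of 13 genes of class I peptide supply and loading, 0 were called by limma, 0 had an unadjusted p under 0.05 and 0 were called by limma voom on the recovered reads, and 10 estimates lay below 0 with a median log2 fold change of -0.28. Calr, the chaperone calreticulin, was at 298 ± 7.30 and 324 ± 53.1 RPKM. Tapbp, tapasin of the loading complex, was at 35.1 ± 3.93 and 30.4 ± 6.02 RPKM, and Psmb8, an immunoproteasome subunit, at 44.5 ± 3.73 and 32.3 ± 12.7 RPKM (SD, n = 3 each). Within the Hoxa9/IRX3 cohort Psmb8 was at 19.5 RPKM in mouse 3.2, 44.9 in mouse 3.3 and 32.6 in mouse 3.5, and mouse 3.2 was the lowest of all 6 mice in 7 of the 13 genes.

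The nonclassical class I genes, relatives of the heavy chains, gave 1 gene called higher and 1 called lower of 12 tested. H2-T24 was at 0.654, 0.454 and 0.675 RPKM in Hoxa9/MTV mice and 2.05, 1.77 and 1.54 RPKM in Hoxa9/IRX3 mice, with a log2 fold change of 1.06 (standard error 0.14, adjusted p = 0.0138 by limma). Fcgrt, the heavy chain of the neonatal Fc receptor, which carries IgG and does not present peptides, was at 1.31, 1.27 and 1.29 RPKM against 0.0625, 0.141 and 0.0463 RPKM. Its log2 fold change was -1.62 (standard error 0.12, adjusted p = 0.00298 by limma). Neither gene had overlapping cohorts.
The H2-Q genes spread widely over the Hoxa9/IRX3 mice. H2-Q4 was at 31.5 ± 1.39 RPKM in Hoxa9/MTV and at 15.3, 48.1 and 25.6 RPKM in mice 3.2, 3.3 and 3.5. H2-Q6 was at 23.5 ± 3.10 RPKM in Hoxa9/MTV cells, and at 1.11, 36.0 and 21.4 RPKM in the same 3 mice, from 51, 1840 and 891 reads. H2-Q7, singled out after its values were seen, was at 8.497 ± 1.86 RPKM and at 0.953, 37.9 and 20.2 RPKM. Mouse 3.2 was the lowest and mouse 3.3 the highest of all mice for each of the 3 genes, as for H2-K1 and H2-D1. Their log2 fold changes of -0.24, -1.14 and 0.24 had adjusted p of 0.732, 0.555 and 0.916 by limma and turned on single mice. Without mouse 3.2 they were 0.15, 0.24 and 1.67, and H2-Q7 was then called higher (adjusted p = 0.0397 by limma). Without mouse 3.3 they were -0.66, -2.01 and -0.69, and without mouse 3.5 that of H2-Q7 was -0.25. Reads may be split among these near-identical copies. H2-T23, the Qa-1 heavy chain, was at 16.4 ± 2.18 and 20.4 ± 2.92 RPKM (adjusted p = 0.301 by limma).

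**Figure D3:**
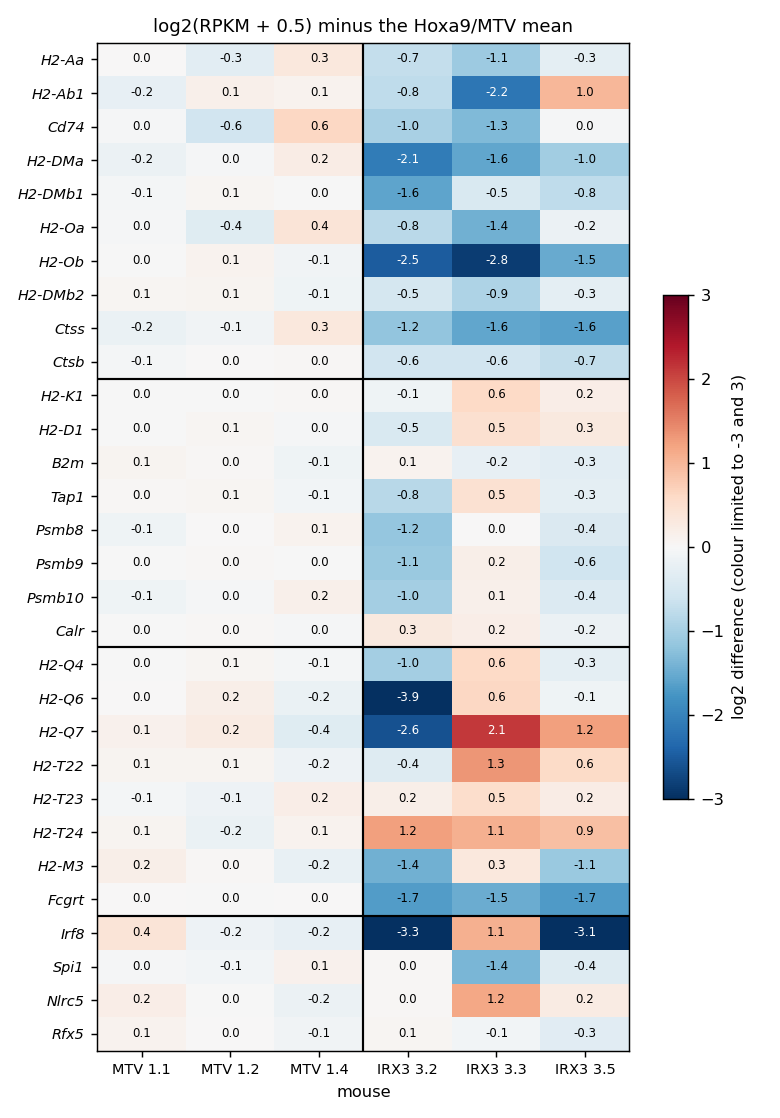
Difference of log2(RPKM + 0.5) from the Hoxa9/MTV mean for class II, class I, nonclassical and regulator genes (rows) in each mouse (columns), with colour limited to -3 and 3; genes outside the naming rule were added after their values were seen. Mice 3.2 and 3.3 go opposite ways in H2-Q6 and H2-Q7, while Fcgrt, H2-Ob and Ctss are low in all 3 Hoxa9/IRX3 mice.

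None of 10 tested genes for regulators of the shared promoter module was called by limma or by voom (0 of 10), 0 had an unadjusted p under 0.05, and they had a median log2 fold change of 0.06. Rfx5 and Rfxap, subunits of the RFX complex, were at 7.56 ± 0.627 against 7.002 ± 1.03 RPKM and at 8.34 ± 0.711 against 7.69 ± 0.367 RPKM, and Nfya, of the NF-Y complex, at 6.41 ± 1.15 against 7.41 ± 1.26 RPKM (SD, n = 3 each). Of the genes that carry the interferon-gamma signal to MHC promoters, 0 of 8 were called by limma or by voom, and 2 had an unadjusted p under 0.05, among them the receptor chain Ifngr2 on the lower side. The receptor chain Ifngr1 was at 44.6 ± 6.40 and 58.4 ± 8.45 RPKM (adjusted p = 0.245 by limma). Socs1, the inhibitor of that signal, was at 1.05, 1.04 and 8.79 RPKM against 12.1, 0.649 and 4.42 RPKM, and the transcription factor Irf1 at 4.25, 3.24 and 8.21 RPKM against 2.00, 3.56 and 4.47 RPKM. Both overlapped.

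With all mice, regulators of the Ciita promoters were not called either (0 of 3 tested by limma or by voom, and 0 with an unadjusted p under 0.05). Irf8, a transcription factor of monocyte and dendritic cell development, was at 39.6, 27.04 and 25.5 RPKM in Hoxa9/MTV mice and 2.61, 63.1 and 2.98 RPKM in mice 3.2, 3.3 and 3.5. Its highest and lowest values of the 6 mice thus both came from the Hoxa9/IRX3 cohort (log2 fold change -1.79, standard error 1.13, adjusted p = 0.367 by limma). Without mouse 3.3 Irf8 was called lower, with a log2 fold change of -3.22 (adjusted p = 0.0043 by limma), and without mouse 3.2 or 3.5 it was at -1.04 or -1.12. Mouse 3.3, with the most Irf8, had the fewest reads of the class II chains and Cd74. Spi1, the myeloid factor PU.1, was at 7.81 ± 0.677 and 5.50 ± 2.63 RPKM, and Bcl6 at 0.503 ± 0.172 and 0.560 ± 0.450 RPKM.
In the costimulation list 1 of 2 tested genes was called lower. Icosl, the ligand of the T cell receptor ICOS, was at 9.68, 7.30 and 8.98 RPKM against 1.68, 2.51 and 4.03 RPKM, with no overlap and a log2 fold change of -1.55 (standard error 0.27, adjusted p = 0.0301 by limma). The other, Cd274 (PD-L1), was at 2.09 ± 0.422 and 1.24 ± 0.382 RPKM (adjusted p = 0.131 by limma), and Cd80 stayed under 0.5 RPKM in all mice.

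**Figure D4:**
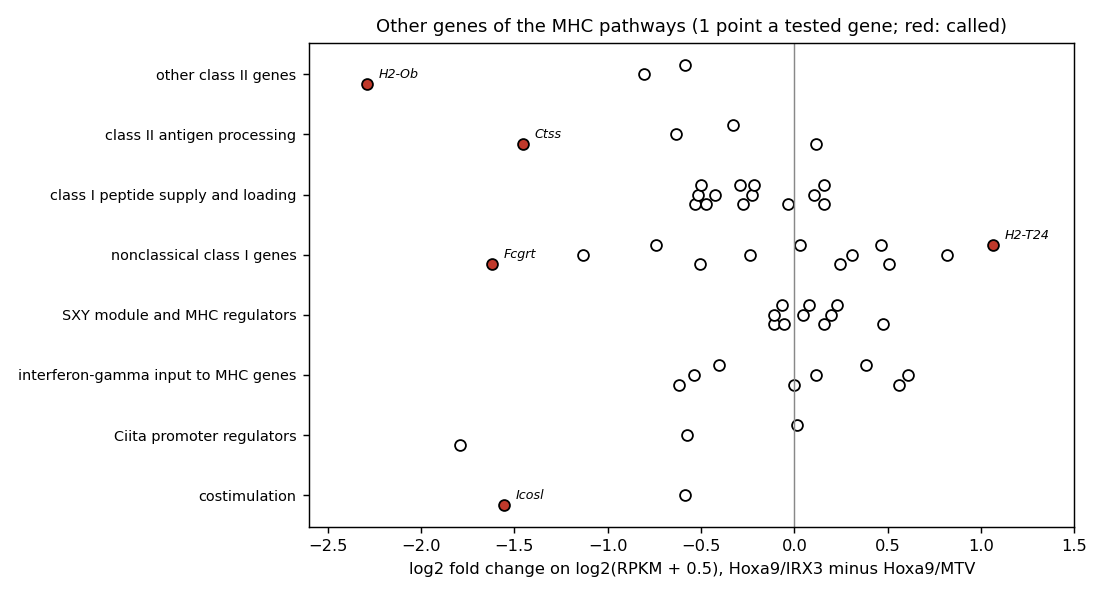
Log2 fold change, Hoxa9/IRX3 minus Hoxa9/MTV on log2(RPKM + 0.5), of each of the 55 tested pathway genes by list, with called genes in red. The called genes are H2-Ob, Ctss, Fcgrt and Icosl on the lower side and H2-T24 on the higher side.

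Of the 5 called pathway genes, Fcgrt was called with any 1 mouse left out, with adjusted p of 0.0043 to 0.0324 by limma. H2-Ob and Ctss were called without any Hoxa9/IRX3 mouse and were not called without mouse 1.1, 1.2 or 1.4, with adjusted p of 0.0795, 0.0981 and 0.0857 for H2-Ob and 0.0559, 0.0763 and 0.0762 for Ctss. Icosl was not called without mouse 1.1, 1.2, 1.4 or 3.3 (adjusted p 0.12, 0.106, 0.132 and 0.0529 by limma). H2-T24 was not called without mouse 1.1, 1.2 or 1.4 (adjusted p 0.0619, 0.0675 and 0.0667 by limma) and fell under 2-fold without mouse 3.2 (log2 fold change 0.98).

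Cells that make class II were looked for in the same libraries through marker lists. Of 12 dendritic cell genes, Ccr7 was at 0 in all mice and 4 were tested, and the list summed to 10.8 to 12.2 RPKM in Hoxa9/MTV and 9.21 to 15.8 RPKM in Hoxa9/IRX3 mice. Most of that sum was Bst2, an interferon-inducible gene not limited to dendritic cells, at 7.98 to 10.7 and 8.93 to 15.2 RPKM. Clec10a, a lectin of dendritic cells and macrophages, was at 0.734, 0.395 and 0.544 RPKM against 0.116, 0.00697 and 0.0171 RPKM, without overlap and under the 2-fold limit of this scale (log2 fold change -0.94, adjusted p = 0.0376 by limma), and was called without mouse 3.2 (-1.03, adjusted p = 0.0332 by limma). Siglech and Cd209a, both under the threshold, were at 0.115 to 0.274 against 0 to 0.0117 RPKM and at 0.0215 to 0.283 RPKM against 0 in each Hoxa9/IRX3 mouse. Zbtb46, Itgax, Xcr1, Clec9a and Batf3, also under the threshold, overlapped. Tcf4 overlapped too, at 0.296 ± 0.0113 and 0.344 ± 0.232 RPKM (SD, n = 3 each). Of the 4 tested genes 2 had estimates below 0 and 2 above. Flt3, a receptor of progenitors and dendritic cells, was called lower, at 0.999, 0.604 and 0.883 RPKM against 0.00162, 0.0249 and 0.0252 RPKM (log2 fold change -1.35, adjusted p = 0.0102 by limma). Flt3 and Clec10a passed the threshold only in Hoxa9/MTV mice. Of 10 B cell genes, the defining Ms4a1 and Pax5 were at 0 in all mice. Cd79b was called lower, at 6.11, 7.07 and 7.01 RPKM against 0.330, 0.149 and 2.31 RPKM (log2 fold change -2.65, adjusted p = 0.0383 by limma), and the list summed to 6.49 to 7.40 and 2.02 to 43.4 RPKM. The upper end of that range is mouse 3.5, in which the pre-B cell gene Igll1 alone was at 38.4 RPKM. Igll1 was higher without overlap, at 0.102, 0.0726 and 0.0312 RPKM against 1.19, 9.11 and 38.4 RPKM. Its log2 fold change of 3.92 had an adjusted p of 0.0776 by limma and was not called. With a mouse left out it was called in 1 of 6 fits. Vpreb1 was also higher without overlap (log2 fold change 1.08, adjusted p = 0.272 by limma). Thus 2 of the 3 tested B cell genes had estimates above 0. Both of them passed the threshold only in Hoxa9/IRX3 mice, Vpreb1 only in mouse 3.5 at 2.72 RPKM. The filter therefore favoured estimates above 0 for both, and this split is a description only.
In the monocyte and macrophage list 2 of 8 tested genes were called lower and 0 higher by limma, beside 2.03% and 1.1% of all tested genes. Its summed levels were 521 to 599 and 486 to 870 RPKM. Of the 8 estimates, 5 lay below 0 and 3 above, beside 57.5% below 0 over all tested genes. Most of the sum was Ly6c2, at 413 to 479 and 414 to 844 RPKM, which overlap (adjusted p = 0.278 by limma). Csf1r overlapped as well, at 5.82, 4.77 and 5.94 RPKM against 0.790, 6.43 and 0.552 RPKM, with mouse 3.3 highest. Cd68, a lysosomal protein of macrophages, was at 78.4 ± 9.81 and 12.7 ± 5.80 RPKM (log2 fold change -2.68, adjusted p = 0.0135 by limma), and the chemokine receptor Ccr2 at 22.5 ± 3.81 and 5.05 ± 1.40 RPKM (log2 fold change -2.06, adjusted p = 0.00843 by limma). In the neutrophil list 2 of 11 were called higher, Elane and Retnlg, beside the 1.1% of all tested genes, and the list summed to 2591 to 3980 and 5233 to 6631 RPKM. Elane alone was at 794 ± 230 and 2964 ± 630 RPKM and Mpo at 620 ± 135 and 1000 ± 172 RPKM (SD, n = 3 each). Mpo and Mmp9 were also higher without overlap but were not called (adjusted p 0.115 and 0.137 by limma). Mmp9 was at 0.713, 0.216 and 0.528 RPKM against 4.17, 1.19 and 1.14 RPKM. Ngp, at 1102 ± 299 and 1074 ± 481 RPKM, overlapped, as did Camp, S100a8, S100a9, Ltf, Mmp8 and Cxcr2. Of the 11 estimates 3 lay below 0, those of Ltf, Mmp8 and Ngp. Of 9 T and NK cell genes 0 were tested, with Cd3d, Trbc2 and Ncr1 at 0 and sums of at most 0.109 RPKM. Of 6 erythroid genes Hba-a1, Hbb-bt and Alas2 were at 0 in all mice. Kit, which the sort required, was at 2.75 ± 0.332 and 2.15 ± 0.535 RPKM (adjusted p = 0.323 by limma), and Ly6g, 1 of the genes behind the Gr1 antigen, was at 0.108 ± 0.0483 and 1.08 ± 0.373 RPKM (log2 fold change 1.35, adjusted p = 0.0205 by limma). Ly6g rests on 5, 4 and 2 reads against 49, 26 and 35, and it passed the threshold only in Hoxa9/IRX3 mice. Ly6c2 of the same family, at 444 ± 33.1 and 683 ± 234 RPKM, was far higher and overlapped. Each of these marker calls was lost with some mouse left out: for Flt3, Ccr2 and Elane without mouse 1.1 or 1.4 (adjusted p 0.0515 to 0.082 by limma), for Cd68, Retnlg and Ly6g without any 1 Hoxa9/MTV mouse (0.0559 to 0.125), and for Cd79b in all such fits but the one without mouse 3.5 (0.0574 to 0.154). The part of these cell type markers in the lower H2-DMa, H2-Ob and Ctss was not tested.

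The mice were also ordered by the mean of the 7 class II members, each centred and scaled over the 6 mice on log2(RPKM + 0.5). The mean was 0.33, 0.15 and 1.03 in mice 1.1, 1.2 and 1.4, and -0.89, -1.06 and 0.43 in mice 3.2, 3.3 and 3.5. Mouse 3.5 lay within the Hoxa9/MTV range, a place that rests on its 8 reads of Ciita. In an alternative chosen after seeing the data, the mean without Ciita, it was at 0.21 and mouse 1.2, the lowest Hoxa9/MTV mouse, at 0.25. Among all tested genes outside the members, the 5 with the highest Pearson r with this mean included Pitpna, Hmgn2, Arl4c and Carns1 (r = 0.98 for each), over 6 mice that share their library and depth with it. Pitpna, a phosphatidylinositol transfer protein, ran at 4.64, 4.55 and 5.83 RPKM in Hoxa9/MTV and 3.34, 3.32 and 4.50 RPKM in Hoxa9/IRX3 mice. None of the 5 was called, with adjusted p of 0.125 to 0.396 by limma. This likeness is a description of the highest of many values.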

How the data were processed

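RNA of sorted KIT+Gr1+ leukemia cells was sequenced by the authors as paired ends of 75 bases from strand-specific polyA libraries. They aligned reads to GRCm38 with Bowtie2 2.2.1, used SAMtools 0.1.19 to drop reads without a primary alignment or with a low mapping quality, assigned reads to Ensembl genes and deposited RPKM in 1 table of 41128 genes. Whether counting used strand is not given in the sources used here. Groups came from the sample labels. Reads were recovered from the steps between low RPKM and were whole, within 0.01 of a read, on the GENCODE M21 span for 65% of tested genes and on some whole length for 99.7%. Reads per gene summed to 104% to 105.4% of the library, so some count for more than 1 gene.

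Protein-coding genes over 0.5 RPKM in at least 1 mouse were tested with limma 3.58.1 in R 4.3.3, with a variance trend, on log2(RPKM + 0.5). Adjusted p in the text are from this fit unless another is named. The script was tested on simulated data. The members and lists were chosen with earlier results of these data known. All members, called genes of the pathway lists, up to 3 more per list by mean RPKM, and the 5 genes most like the class II mean are named. Marker genes were named beside them. Some genes that this rule names are not reported here.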

Additional observations from a re-analysis of the deposited data

How the results depend on the processing

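The 17 alternatives were pseudocounts of 0.1 and 1, a filter of RPKM over 1 in at least 3 mice, no filter, all gene types, quantile normalization, scaling by median of ratios, a fit without variance trend, limma voom on recovered reads, exon length, the study's criterion of an unadjusted p and a 2-fold ratio, and leaving out each mouse. Over the 8 tested members they gave 134 comparisons. Of these, 124 kept direction and side of the threshold. H2-DMa kept its sign throughout and lost its call in 6, with no filter (log2 fold change -1.57, adjusted p = 0.0592 by limma), with all gene types (-1.57, adjusted p = 0.0512 by limma) and without mouse 1.1, 1.2, 1.4 or 3.3, where the leave-one-out values ran from -1.83 to -1.31. H2-DMb1 passed under the study's criterion (-1.004). In 3 comparisons the sign reversed, in B2m after quantile normalization (0.026) and, without mouse 3.3, in H2-Ab1 (0.124, range with a mouse left out -1.465 to 0.124) and H2-D1 (-0.084, range -0.084 to 0.388). The cause was not tested. Estimates of the low class II genes kept their sign but not their size, from -0.50 to -3.28 in Cd74, -0.45 to -2.04 in H2-Aa and -0.13 to -1.73 in H2-Ab1 over the settings with all mice, with pseudocount 1 (the study's criterion for H2-Ab1) at the small end and voom at the large one.

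The count of members called was 1, and 0 with no filter or all gene types, 2 under the study's criterion, and 0 to 1 with a mouse left out. The count of all genes called was 298, and 175 with no filter, 551 with exon length, 664 under the study's criterion and 61 to 415 with a mouse left out. Median-of-ratios scaling and quantile normalization moved the median of all tested genes from -0.06 to 0.01 and 0.02. At this depth Ciita, H2-Eb1 and the I-A chains rest on few reads in mouse 3.3. No paired analysis was possible because the mouse numbers of the cohorts are not shared.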
